A study of Homo sapiens with 2 samples.

Results

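CpG island shores are the stretches that flank CpG islands, and the account below covers those shores that lie in gene promoters on the autosomes. A member was a gene with 3 or more CpGs that the deposited annotation places both in a promoter and in an island shore, each read 10 or more times in both libraries, and the CpGs of a gene were grouped per chromosome. By this rule 14759 genes were members, of 25074 genes with 3 or more such promoter CpGs of any kind, and 226005 of 2773807 deposited positions entered the grouping. Whole read counts could be recovered for 3 or more CpGs in 14757 members, which are described here through 225367 promoter shore CpGs. The cells were SH-SY5Y, an established human neuroblastoma line with features of sympathetic neurons. One library came from cells exposed to Mdivi-1, and the other, called the control, from the same line exposed to the solvent DMSO. The compound is widely used against mitochondrial fission, and its described target is DRP1, the GTPase that divides mitochondria and is made from DNM1L. The dose and the length of exposure are not given in the sources used here, and the identity of the line was not checked, as expression data were not analysed here. With 1 library in each group, no difference below has a replicate check, and every test on reads compares these 2 libraries and not the conditions.

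CpG islands are short, CpG-dense stretches that cover the start sites of many genes and are usually unmethylated in cells where the gene can be used. Methylation climbs in the shores on either side, and shores are known as places where methylation differs between tissues and between normal and tumour cells more often than in the islands. Methylation of a promoter island goes with stable silencing, whereas the bearing of shore methylation on a gene depends on the gene. In neuroblastoma, protocadherin promoters are among the regions studied for their methylation.

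Sequences show what CpG density borders these shores. Below are the 250 bases before the RefSeq start site of 6 members on which the results turn. UBE2G1 and CTU1 had shores that differed between the libraries next to nearly unmethylated islands, PLIN2 had one of the widest losses, TCTN1 and PRSS27 are among the widest contrasts between shore and island in either direction, and DNM1L encodes the described target of the compound. Capitals mark CpG dinucleotides, all lines run 5′ to 3′ along the gene, and coordinates are those of GRCh38.p14 (chr17:4366676-4366925, minus strand for UBE2G1; chr19:51108410-51108659, minus strand for CTU1; chr9:19127493-19127742, minus strand for PLIN2; chr12:110613879-110614128, plus strand for TCTN1; chr16:2720225-2720474, minus strand for PRSS27; chr12:32679051-32679300, plus strand for DNM1L). The methylation table uses hg19 and no genome of that build was used here, so the measured CpGs were not placed on these letters, and a window can hold island as well as shore.
UBE2G1: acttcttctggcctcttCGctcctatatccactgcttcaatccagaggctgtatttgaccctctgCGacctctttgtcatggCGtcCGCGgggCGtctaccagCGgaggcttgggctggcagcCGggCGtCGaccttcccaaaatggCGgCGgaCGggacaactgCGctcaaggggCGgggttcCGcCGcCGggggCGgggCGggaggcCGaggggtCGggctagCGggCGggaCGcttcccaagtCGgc
CTU1: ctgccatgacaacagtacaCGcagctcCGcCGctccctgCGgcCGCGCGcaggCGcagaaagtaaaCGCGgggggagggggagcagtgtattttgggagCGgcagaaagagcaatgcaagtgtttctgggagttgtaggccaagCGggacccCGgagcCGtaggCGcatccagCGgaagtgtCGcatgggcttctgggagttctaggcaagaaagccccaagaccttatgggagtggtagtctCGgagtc
PLIN2: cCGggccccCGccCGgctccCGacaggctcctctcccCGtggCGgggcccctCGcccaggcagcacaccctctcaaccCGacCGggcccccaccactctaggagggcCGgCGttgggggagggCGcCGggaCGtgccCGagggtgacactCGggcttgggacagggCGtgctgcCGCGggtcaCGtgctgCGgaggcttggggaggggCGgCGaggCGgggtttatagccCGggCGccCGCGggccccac
TCTN1: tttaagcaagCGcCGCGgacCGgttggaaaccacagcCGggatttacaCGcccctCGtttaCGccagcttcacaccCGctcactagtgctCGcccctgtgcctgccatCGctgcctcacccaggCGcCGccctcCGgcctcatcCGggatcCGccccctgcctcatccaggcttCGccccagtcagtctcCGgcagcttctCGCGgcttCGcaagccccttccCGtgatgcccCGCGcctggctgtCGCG
PRSS27: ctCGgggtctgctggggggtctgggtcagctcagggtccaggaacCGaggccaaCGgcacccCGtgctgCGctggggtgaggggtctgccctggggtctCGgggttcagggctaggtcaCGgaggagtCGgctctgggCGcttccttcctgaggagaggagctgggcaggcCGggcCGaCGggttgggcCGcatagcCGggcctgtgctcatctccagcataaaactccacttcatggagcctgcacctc
DNM1L: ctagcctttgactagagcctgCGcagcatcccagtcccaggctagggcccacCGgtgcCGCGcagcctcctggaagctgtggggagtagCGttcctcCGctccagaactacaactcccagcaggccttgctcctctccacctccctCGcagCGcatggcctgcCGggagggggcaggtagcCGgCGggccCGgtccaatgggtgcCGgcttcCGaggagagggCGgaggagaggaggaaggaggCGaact
The UBE2G1 window held 26 CpGs and the TCTN1 window 26, against 14 in PRSS27 and 16 in DNM1L. CTU1 held 18 CpGs and PLIN2 28.

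Over 7834 members with a single window in the RefSeq table, the 250 bases before the start held a median of 22.0 CpGs, against 9 over all 22114 genes with a single window. The number of CpGs in the window did not separate members by the methylation of their shores. The median was 21.0 CpGs where the shore, averaged over both libraries, was under 20%, 22.0 at 20 to 80% and 22.0 over 80%. The GC box GGGCGG, the letters bound by Sp1 and related factors, was present on either strand in 69.8%, 71.5% and 69.9% of the windows in these 3 classes, and in 40.9% of the windows of all genes with a single one. The CCAAT box occurred on either strand in 39.4% of windows whose shore was under 20% and in 28.9% of those over 80%, against 33.4% for all genes with a single window. TATAAA was found on either strand in 5.04% and 6.09% of the same 2 classes, against 11.8% for all genes with a single window. These motifs were searched without regard to overlap with one another, and a match is only a match of letters.

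Promoter shores of SH-SY5Y cells spanned the whole range of methylation, and the distribution was nearly the same in both libraries. Each member had 3 to 224 CpGs, with a median of 13.0, read 57.7 times on average in the Mdivi-1 library and 46.0 times in the control. The level of a member, the mean over its CpGs, had a median of 27.4% in the Mdivi-1 library and 27.2% in the control. The quartiles lay at 7.21% and 56.7% in the Mdivi-1 library and at 7.03% and 56.1% in the control. Members under 20% made up 41.4% in the Mdivi-1 library and 41.9% in the control, and members over 80% made up 11.4% in the Mdivi-1 library and 10.9% in the control. The largest share of members, 47.2% in the Mdivi-1 library and 47.2% in the control, was intermediate at 20 to 80%.

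**Figure D1:**
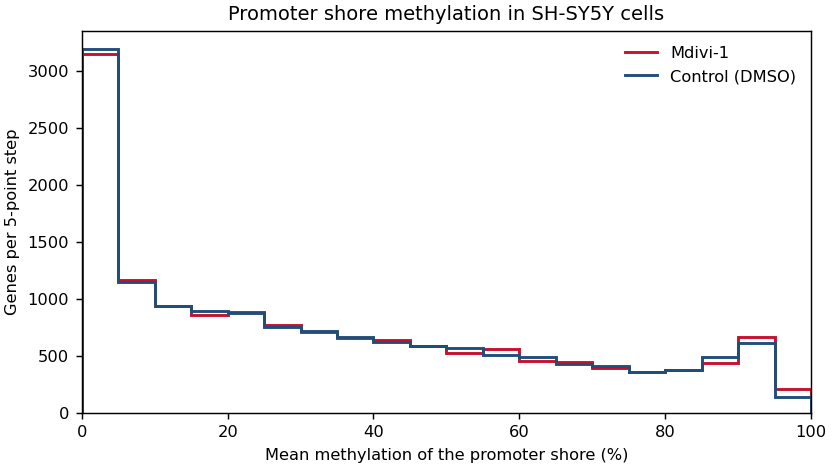
Number of genes (vertical axis) by the mean methylation of the promoter shore in steps of 5 points (horizontal axis, percent), for the Mdivi-1 library (red) and the control library (blue). Both outlines peak in the lowest step, with 3148 genes under 5% in the Mdivi-1 library and 3188 in the control, and show a small second peak above 90%.

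Most intermediate members held both low and high CpGs. Of the members at 20 to 80%, 80.4% in the Mdivi-1 library and 80.3% in the control held both a CpG under 20% and a CpG over 80%, against 47.2% of all members in the Mdivi-1 library and 47.0% in the control. The SD of CpG levels within a member had a median of 23.2 points in the Mdivi-1 library and 23.2 points in the control. Of single promoter shore CpGs, 56.1% were under 20% in the Mdivi-1 library and 56.1% in the control, and 23.9% were over 80% in the Mdivi-1 library against 23.3% in the control.

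The position of a CpG relative to its island ordered these levels. Within 200 bases of the nearest measured island CpG, promoter shore CpGs averaged 19.1% in the Mdivi-1 library and 18.9% in the control. The level climbed with distance and was highest at 801 to 1000 bases, with 46.7% in the Mdivi-1 library and 46.2% in the control. Beyond that it declined, to 36.8% in the Mdivi-1 library and 36.5% in the control at 1801 to 2000 bases. The decline was present in both libraries in each of the 5 steps past 1000 bases. Shores upstream of the island, by the direction of transcription, started lower and climbed further, with 19% in the first step and 49.1% in the highest in the Mdivi-1 library, and 18.8% and 48.6% in the control. Shores downstream began at 26.3% in the Mdivi-1 library and 26.0% in the control, and their highest step, at 1601 to 1800 bases, had 40.6% in both libraries.

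**Figure D2:**
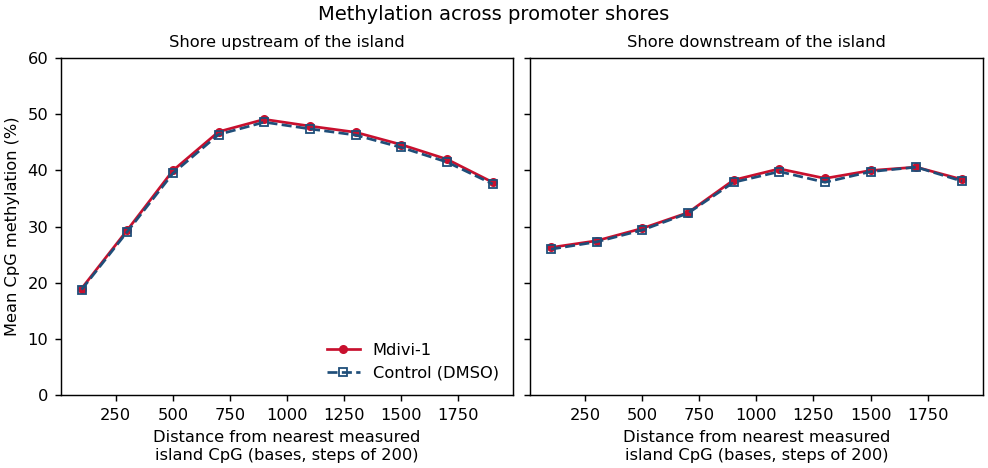
Mean methylation of promoter shore CpGs (vertical axis, percent) by distance from the nearest measured island CpG in steps of 200 bases (horizontal axis), upstream of the island (left) and downstream (right), for the Mdivi-1 library (red circles) and the control (blue squares). The 2 libraries nearly coincide, and the upstream side climbs from under 20% to just under 50% before it declines.

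The upstream and downstream sides were also compared within a gene, in 683 members with 3 or more CpGs on both sides. The upstream shore had a median of 34.2% in the Mdivi-1 library and 33.7% in the control, and the downstream shore 13.9% in the Mdivi-1 library and 12.3% in the control. The upstream side was the higher one in 410 of these members in the Mdivi-1 library and in 409 in the control. By annotation, shore CpGs in 5′ UTRs were the lowest, at 16.4% in the Mdivi-1 library and 16.2% in the control over 9230 CpGs. Those upstream of a start site averaged 31.2% in the Mdivi-1 library and 30.9% in the control over 94258 CpGs. Exonic CpGs averaged 50.3% in the Mdivi-1 library and 50.0% in the control over 9463 CpGs, and those in 3′ UTRs 56.7% in the Mdivi-1 library and 56.1% in the control over 2591 CpGs. The last 2 classes are CpGs that lie in the promoter of one gene and in the body or end of a transcript.

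Gene types differed in their shore levels. Shores of 12043 protein-coding members had a median of 27.3% in the Mdivi-1 library and 26.9% in the control, and those of 1266 long noncoding RNA genes 26.2% in the Mdivi-1 library and 26.0% in the control. MicroRNA genes stood higher, with a median of 44.2% in the Mdivi-1 library and 43.5% in the control over 356 members, and 483 pseudogenes had 44.8% in the Mdivi-1 library and 43.7% in the control. The shores of 132 snoRNA genes were low, at 8.84% in the Mdivi-1 library and 8.09% in the control. Many snoRNA and microRNA genes lie within other genes and can share a promoter annotation with them.

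Set beside the island of the same promoter, the shore was usually the more methylated of the pair. In 11501 members with 3 or more island CpGs, the shore was higher in 80.5% in the Mdivi-1 library and 80.3% in the control. The gap, shore minus island, had a median of 14.3 points in the Mdivi-1 library and 14 points in the control. Where the island was under 20% on average over both libraries, as in 9393 members, the island had a median of 1.30% in the Mdivi-1 library and 1.27% in the control, and the shore 21.0% in the Mdivi-1 library and 20.7% in the control. Where the island was over 80%, as in 652 members, this order was turned round, with medians of 92.7% for the island and 83.0% for the shore in the Mdivi-1 library, and 91.9% and 82.3% in the control. Fully contrasting pairs were uncommon. An island under 20% with a shore over 80% occurred in 521 members in the Mdivi-1 library and 486 in the control, and an island over 80% with a shore under 20% in 39 in the Mdivi-1 library and 40 in the control.

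**Figure D3:**
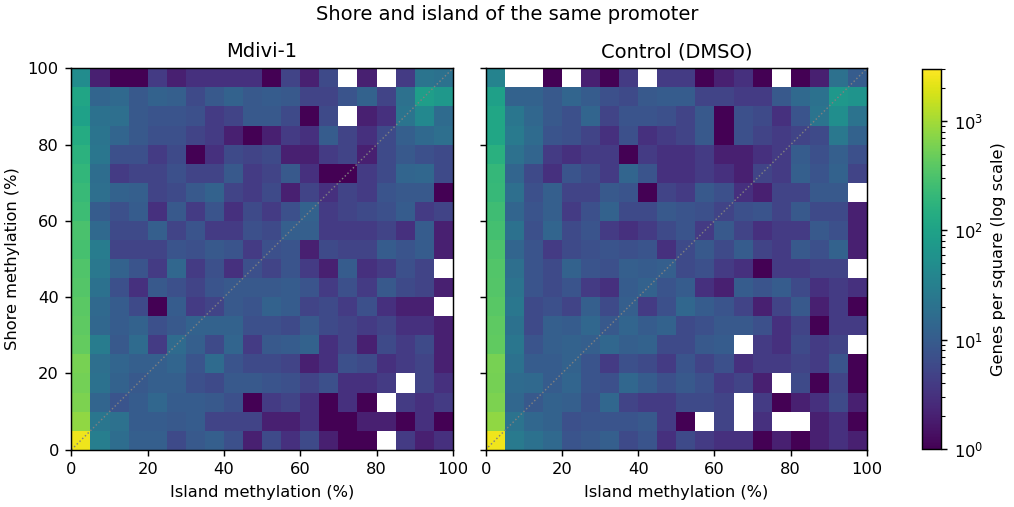
Shore methylation (vertical axis, percent) against island methylation of the same promoter (horizontal axis, percent) in 11501 genes, as the number of genes per 5-point square (colour, log scale), with the Mdivi-1 library on the left and the control on the right. The dotted diagonal marks equal levels, and most genes stack in the left column, with an unmethylated island and a shore anywhere from 0 to 100%.

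The steepest contrasts, ranked in the control, included genes that all dividing cells use. PRPF3, a component of the U4/U6 spliceosome particle, had a shore at 94.9% in the Mdivi-1 library and 97.7% in the control, beside an island of 25 CpGs at 1.12% in the Mdivi-1 library and 0.682% in the control. SRRM1, a splicing coactivator, had a shore at 93.7% in the Mdivi-1 library and 98.4% in the control, and CDK11A, a kinase of the splicing and cell cycle machinery, 92.2% in the Mdivi-1 library and 96.7% in the control. TCTN1, a protein of the ciliary transition zone, had a shore at 93.5% in the Mdivi-1 library and 98.0% in the control beside an island at 1.27% in the Mdivi-1 library and 1.45% in the control. The uncharacterised locus LOC100505549 had a shore at 97.0% in the Mdivi-1 library and 96.2% in the control. The islands of these 5 members were all under 2% in both libraries. Ranking in the control favours shores that read high there, so differences between the libraries in these members are not read as losses.

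The opposite contrast was led by PRSS27, a serine protease gene. Its 14 shore CpGs averaged 2.84% in the Mdivi-1 library and 0% in the control, where no CpG had a methylated read and the deepest had 18 reads, which allows a level of up to 16.7% there, while its island of 20 CpGs stood at 95.2% in the Mdivi-1 library and 96.5% in the control. The shore of SIVA1, which encodes a regulator of apoptosis, was at 2.03% in the Mdivi-1 library and 1.66% in the control over 69 CpGs, next to island CpGs at 97.7% in the Mdivi-1 library and 92.2% in the control. The antisense gene THAP7-AS1 had shore levels of 5.65% in the Mdivi-1 library and 5.12% in the control, and the U6 spliceosomal RNA gene RNU6-9 had 0.992% in the Mdivi-1 library and 2.06% in the control. In such promoters the annotated island that carries the methylation need not be the one at the start site, since a gene's promoter CpGs are grouped whatever island they flank.

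Between the libraries, promoter shores were on average slightly more methylated after Mdivi-1. The mean over members of the difference, Mdivi-1 minus control, was 0.373 percentage points and the median 0.268 points. Of the members, 8422 were higher after Mdivi-1, 6301 lower and 34 equal. Over single promoter shore CpGs the mean difference was 0.361 points with a counting error, treating CpGs as independent, of 0.0139 points. This error covers the sampling of reads alone and is too small where neighbouring CpGs share reads. The difference was above 0 on all 22 autosomes, from 0.131 points on chromosome 11 to 0.593 points on chromosome 3. Of the members, 45.0% differed by less than 1 point and 93.4% by less than 5 points, and the range was from -26.3 to 26.2 points.

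The mean difference was not particular to promoter shores. Promoter shore CpGs averaged 33.7% in the Mdivi-1 library and 33.4% in the control, and all autosomal CpGs 43.2% in the Mdivi-1 library and 42.8% in the control, a difference of 0.456 points. Island CpGs of promoters differed by 0.118 points, at 13.7% in the Mdivi-1 library and 13.6% in the control, and shores away from promoters by 0.528 points, at 49.9% in the Mdivi-1 library and 49.4% in the control. Among promoter shores the difference grew with the level. It averaged 0.106 points in 6133 members under 20%, 0.467 points in 6969 members at 20 to 80% and 0.967 points in 1655 members over 80%. In the last class 68.0% of members were higher in the Mdivi-1 library. The Mdivi-1 library was the deeper one, and after both were thinned to the same number of reads at each CpG the mean over members was 0.375 points.

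A rule of size picked out the members with the widest differences, as 1 library per group allows no test over genes. It asked for 5 or more CpGs, a mean difference of 10 points or more and 80% or more of the CpGs in that direction. Of 13426 members with 5 or more CpGs, 34 were higher in the Mdivi-1 library and 17 lower, which is 0.253% and 0.127%. Over 22658 autosomal promoters taken with all their CpGs, the same rule held for 0.128% in the higher and 0.115% in the lower direction. For promoter islands alone the shares of 12498 genes were 0.248% higher and 0.232% lower, and the difference between these shares and those of shores was not tested. For promoter shelves, which lie beyond the shores, the shares of 1726 genes were 0.463% higher and 0.174% lower. Genes with few CpGs carried most of the differences past the rule, as 44 of the 51 members had 5 to 9 CpGs and 1 had 20 or more. Among genes with 5 to 9 CpGs, the rule was met in either direction by 1.23% for shores and 1.93% for islands. The share was 1.64% for shelves and 0.641% for promoter CpGs outside all 3 classes, and these shares were not tested. The rule was met by 3.62% of members with under 20 reads per CpG in the shallower library, 0.417% of those with 20 to 40 reads and 0.119% of those with 40 reads or more. Over all members, the 95% counting interval of the difference left out 0 for 10.7% if each CpG counts as independent, and for 2 members if the same reads are taken to cover all CpGs of a member. None of the 51 was among those 2, and since they were chosen by the size of the difference their own intervals are no test. Agreement in direction among the CpGs of these members is no added check either, as the rule asks for it.

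**Figure D4:**
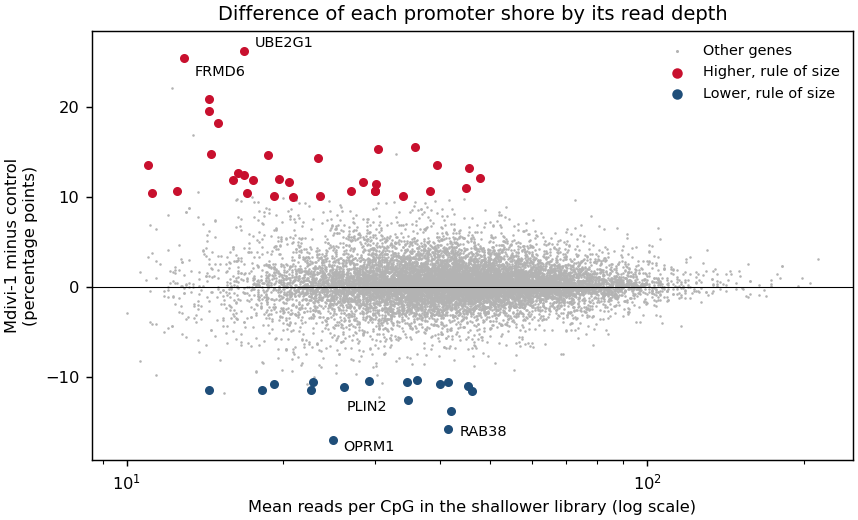
Difference in mean methylation of each promoter shore with 5 or more CpGs (vertical axis, Mdivi-1 minus control, percentage points) by the mean number of reads per CpG in the shallower library (horizontal axis, log scale). Coloured points meet the rule of size, 34 higher (red) and 17 lower (blue), grey points are all other genes, among them 10 that pass 10 points without 80% of CpGs in one direction, and the spread narrows as depth grows.

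The 8 widest gains were led by UBE2G1, which encodes a ubiquitin-conjugating enzyme. Its 5 shore CpGs, 4270203 to 4270304 on chromosome 17 of hg19, averaged 62.2% in the Mdivi-1 library and 36.0% in the control, at 24.0 and 16.8 reads per CpG. The difference was 26.2 points with a counting error, treating CpGs as independent, of 6.97 points. If the same reads are taken to cover all its CpGs, the error was 15.9 points. The CpGs had 48.0%, 48.3%, 66.7%, 85.0% and 63.2% in the Mdivi-1 library and 35.3%, 10%, 20%, 64.7% and 50.0% in the control, along the chromosome, so all 5 were higher after Mdivi-1. The 6 island CpGs beside them had 0% in the Mdivi-1 library, where the deepest CpG had 0 of 26 reads methylated, which allows up to 11.5%, and 3.03% in the control. FRMD6, which encodes a FERM-domain protein linked to the Hippo growth pathway, had 76.1% in the Mdivi-1 library and 50.7% in the control over 7 CpGs, on chromosome 14 at 52117642 to 52117755. Each of its 7 CpGs was higher, at 14.6 reads per CpG in the Mdivi-1 library and 12.9 in the control, and its island of 41 CpGs stood at 1.08% in the Mdivi-1 library and 0.731% in the control.

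The other gains concerned less studied loci. The microRNA gene MIR6881 had 37.1% in the Mdivi-1 library and 16.2% in the control over 5 CpGs, and TAPT1, which encodes a membrane protein linked to the cilium, 37.3% in the Mdivi-1 library and 17.8% in the control over 5 CpGs. The pseudogene CLEC4GP1 had 45.5% in the Mdivi-1 library and 27.3% in the control, and the pseudogene PRSS30P 49.5% in the Mdivi-1 library and 34.2% in the control. The locus LOC100129037 had 70.3% in the Mdivi-1 library and 54.8% in the control, at 47.4 and 35.8 reads per CpG. DEGS2, a sphingolipid desaturase and hydroxylase, had 54.4% in the Mdivi-1 library and 39.6% in the control over 6 CpGs. In these 6 members no CpG was lower in the Mdivi-1 library.

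Losses were led by OPRM1, the gene of the mu opioid receptor, with 41.9% in the Mdivi-1 library and 58.8% in the control over 7 CpGs at 154359968 to 154360529 on chromosome 6. Its difference of -17.0 points came to -10.4 points when the reads of all CpGs were pooled. One of the 7 CpGs, at 154359968, was higher after Mdivi-1, with 94.4% in the Mdivi-1 library and 82.1% in the control, and the other 6 were lower. RAB38, a small GTPase of melanosome formation, had the most uniform loss. Its 19 CpGs, between 87908632 and 87909233 on chromosome 11, averaged 46.8% in the Mdivi-1 library and 62.5% in the control, and all 19 were lower after Mdivi-1. The difference was -15.7 points with a counting error, treating CpGs as independent, of 2.59 points, at 57.8 reads per CpG in the Mdivi-1 library and 41.5 in the control. With reads taken as shared by all its CpGs, the error was 10.1 points.

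The RAB38 shore is shared with the microRNA gene MIR3166, whose promoter annotation adds 2 shore CpGs on the other side of the island and the island itself. Over its 21 shore CpGs MIR3166 had 47.0% in the Mdivi-1 library and 60.8% in the control, a difference of -13.8 points. The 31 island CpGs between, from 87908245 to 87908614, went the other way, with 56.8% in the Mdivi-1 library and 37.9% in the control, a difference of 18.9 points with a counting error, treating CpGs as independent, of 2.67 points. Of these, 24 were higher and 7 lower in the Mdivi-1 library, at 31.2 reads per CpG in the Mdivi-1 library and 27.0 in the control. The error with reads taken as shared was not computed for this island. For the 21 shore CpGs of MIR3166 it was 10.1 points, against 2.43 points treating CpGs as independent. In the control the 31 island CpGs lay between 9.09% and 66.7% and the 21 shore CpGs between 43.5% and 88.4%. In the Mdivi-1 library the island CpGs lay between 43.2% and 80% and the shore CpGs between 29.5% and 76.1%. The lowest control value rests on 1 of 11 reads, and the 80% in the Mdivi-1 library on 8 of 10 reads. Of 10161 members with 5 or more CpGs in both shore and island, 46 differed by 5 points or more in each. Shore and island went in opposite directions in 23 of these. At 10 points or more in each there were 4 members, and 2 of them, MIR3166 and C6orf141, had opposite directions. C6orf141, an open reading frame on chromosome 6, had 69.4% in the shore in the Mdivi-1 library and 80.6% in the control, and 85.7% over 5 island CpGs in the Mdivi-1 library and 74.1% in the control. It was found by this count, after its values were seen.

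**Figure D5:**
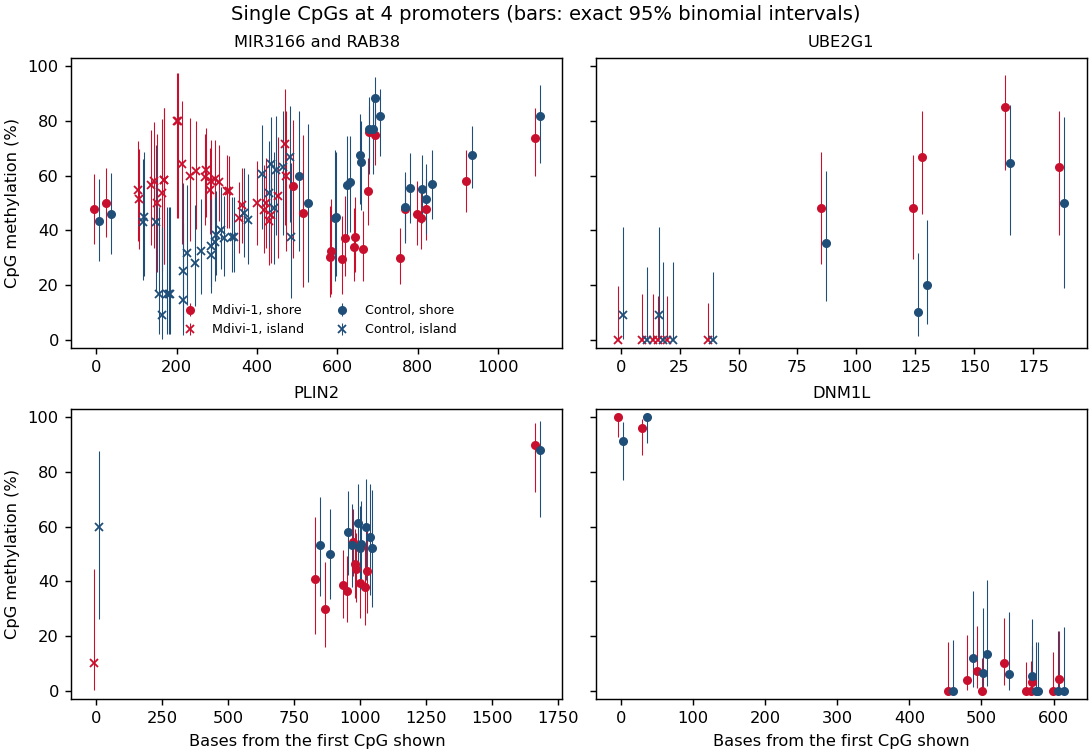
Methylation of single CpGs (vertical axis, percent, with exact 95% binomial intervals) along 4 promoters (horizontal axis, bases from the first CpG shown, the 2 libraries moved slightly apart) in the Mdivi-1 library (red) and the control (blue), for shore CpGs (circles) and island CpGs (crosses). At MIR3166 and RAB38 the red crosses lie above the blue ones through much of the island and the red circles below the blue ones in the shore to its right, at UBE2G1 the 5 red circles lie above the blue ones, at PLIN2 most red circles lie below, and at DNM1L the libraries overlap.

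PLIN2, which coats lipid droplets, had 45.6% in the Mdivi-1 library and 58.0% in the control over 11 CpGs at 19128656 to 19129491 on chromosome 9. The library exposed to Mdivi-1 was lower at 10 of them, a difference of -12.5 points with a counting error, treating CpGs as independent, of 3.32 points. With reads taken as shared by all CpGs of PLIN2, the error was 11.0 points. CTU1, which thiolates wobble bases of transfer RNAs, had 43.6% in the Mdivi-1 library and 55.1% in the control, 6 of 7 CpGs being lower, beside an island at 1.90% in the Mdivi-1 library and 2.14% in the control. PKMYT1, an inhibitory kinase of CDK1, had 67.5% in the Mdivi-1 library and 79.0% in the control over 5 CpGs, and its difference of -11.4 points became -5.36 points after thinning to equal depth. BCL3, a nuclear member of the I-kappa-B family, had 15.7% in the Mdivi-1 library and 27.1% in the control, and its difference became -1.94 points among CpGs with 20 or more reads and -6.94 points with pooled reads. The pseudogene ALOX12P2 had 26.9% in the Mdivi-1 library and 38.3% in the control, a difference of -11.4 points, or -7.29 points with pooled reads. With OPRM1, these last 3 were the losses whose size moved over 1.5 times under an alternative.

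Low islands beside these shores differed little between the libraries. Of the 51 members past the rule of size, 30 had 5 or more island CpGs, and in 19 of these the island was under 20%. The largest island difference among those 19 was 3.04 points in either direction. Levels this low leave little room for a difference. Over all members, the SD of the shore difference was 1.84 points under 20% and 3.25 points at 20 to 80%. Among the other islands, that of MIR3166 differed by 18.9 points, that of SMIM17 by 10.6 points and that of PRSS30P by 1.62 points. The members just inside the rule were RAB32, with 94.1% in the Mdivi-1 library and 84.1% in the control, LOC105370697, with 48.0% in the Mdivi-1 library and 37.9% in the control, and SMIM17, with 55.2% in the Mdivi-1 library and 45.0% in the control. Just outside it were SPATA13, with 34.7% in the Mdivi-1 library and 24.8% in the control, MAPK6P6, with 26.4% in the Mdivi-1 library and 16.7% in the control, and SHE, with 56.7% in the Mdivi-1 library and 46.9% in the control.

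The shore of DNM1L, the gene of the described target, was close to the same in both libraries. Its 12 CpGs, at 32831472 to 32832083 on chromosome 12, averaged 18.7% in the Mdivi-1 library and 19.5% in the control, a difference of -0.776 points. The counting error was 1.52 points treating CpGs as independent and 11.2 points with reads taken as shared by all of them. The difference was -3.74 points with pooled reads, -1.63 points after thinning and -0.0689 points with the fractions as deposited. The average hides a step within the shore. The 2 CpGs farthest from the island, 660 and 627 bases away, had 100% and 96.0% in the Mdivi-1 library and 91.4% and 100% in the control. The 10 CpGs within 203 bases of it lay between 0% and 10% in the Mdivi-1 library, at 19 to 33 reads each, and between 0% and 13.3% in the control, at 14 to 19 reads each.

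The genes of 19 lists, 536 members in all, are given next. None met the rule of size, which 0.380% of members with 5 or more CpGs met, and nothing is read from the count for any one list. Members named from the lists have 5 or more CpGs, and wider differences occurred among those with fewer, from -15.4 points in the Wnt list to 18.3 points in the ribosomal protein list. Of 19 fission genes 18 were members, 11 higher and 7 lower in the Mdivi-1 library, with a median difference of 0.280 points, against 0.268 points over all members. MTFR1L, a regulator of mitochondrial shape, had 17.6% in the Mdivi-1 library and 15% in the control, and AP3B1, a subunit of a vesicle adaptor, 53.1% in the Mdivi-1 library and 55.2% in the control. Neither value held its size, as the MTFR1L difference of 2.60 points was 5.8 points with pooled reads and 1.16 points after thinning, and the AP3B1 difference of -2.07 points was 12.6 points with pooled reads. Of 20 fusion and cristae genes 15 were members, 7 higher and 8 lower, with a median difference of -0.0255 points. STOML2, a scaffold of the inner membrane, had 8.02% in the Mdivi-1 library and 12.8% in the control, a difference of -4.74 points, or -2.33 points among CpGs with 20 or more reads and -0.244 points with pooled reads. MFN2, a fusion GTPase of the outer membrane, had 9.82% in the Mdivi-1 library and 12.6% in the control.

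Mitophagy and respiratory chain genes were also described. Of 20 mitophagy genes 18 were members, 9 higher and 9 lower, with a median of 0.0809 points. VDAC1, the outer membrane channel, had 65.2% in the Mdivi-1 library and 60.3% in the control, and BNIP3L, a mitophagy receptor, 61.0% in the Mdivi-1 library and 64.4% in the control, a difference of -3.38 points that was -2.09 points with pooled reads. Of 79 respiratory chain subunits 62 were members, 37 higher and 24 lower, with a median of 0.211 points and a range from -15.1 to 9.33 points whose ends were members of under 5 CpGs. UQCRQ of complex III had 65.2% in the Mdivi-1 library and 60.9% in the control, and its difference of 4.38 points was -0.545 points with pooled reads. NDUFC2 of complex I, whose CpGs are also those of the read-through gene NDUFC2-KCTD14, had 36.3% in the Mdivi-1 library and 40.5% in the control, with 9 of 10 CpGs lower.

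Of 32 antioxidant genes 22 were members, 13 higher and 9 lower, with a median of 0.359 points. NQO1, a quinone reductase, had 20.4% in the Mdivi-1 library and 15.2% in the control, a difference of 5.24 points that was -2.67 points among CpGs with 20 or more reads. GCLM, the modifier subunit of the glutathione-making ligase, had 57.9% in the Mdivi-1 library and 55.4% in the control. Of 30 genes of the integrated stress response 24 were members, 9 higher and 15 lower, with a median of -0.233 points and a mean of 0.145 points, so median and mean differed in sign. PSAT1, an enzyme of serine synthesis, had 45.0% in the Mdivi-1 library and 40.4% in the control, with 26 of 34 CpGs higher, and the kinase gene EIF2AK2 had 83.8% in the Mdivi-1 library and 80.2% in the control.

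Regulators of the adrenergic and mesenchymal states of neuroblastoma cells were listed separately. Among adrenergic genes CHGA, which encodes the granule protein chromogranin A, had 13.7% in the Mdivi-1 library and 20.4% in the control, with 4 of 6 CpGs lower and none higher. Of the 29 adrenergic genes 22 were members, 14 higher and 8 lower, with a median of 0.319 points and a mean of -0.451 points. Of 34 mesenchymal state genes 27 were members, 14 higher and 13 lower, with a median of 0.0745 points. WWTR1, the Hippo coactivator TAZ, had 63.5% in the Mdivi-1 library and 58.9% in the control, a difference of 4.59 points that was 1.18 points among CpGs with 20 or more reads. MAFF, a small MAF factor, had 28.8% in the Mdivi-1 library and 32.5% in the control, a difference of -3.68 points, or 0.906 points with pooled reads.

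The shores of 33 tumour suppressor genes often methylated in cancer, of 38 listed, had a median of 43.2% in the Mdivi-1 library and 42.1% in the control, against 27.4% and 27.2% over all members. Of these 20 were higher and 13 lower in the Mdivi-1 library, with a median difference of 0.259 points. THBS1, which encodes a matrix protein that restrains vessel growth, had 28.4% in the Mdivi-1 library and 34.2% in the control, with 18 of 23 CpGs lower. TNFRSF10C, a decoy receptor for TRAIL, had 24.8% in the Mdivi-1 library and 30.5% in the control, a difference of -5.68 points that was -0.599 points with 1 position kept per CpG.

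The HOX clusters held 32 members of 39 listed, with medians of 30.1% in the Mdivi-1 library and 27.1% in the control, 16 higher and 16 lower, and a median difference of 0.197 points. HOXC11 had 29.9% in the Mdivi-1 library and 22.1% in the control, and HOXB8 40% in the Mdivi-1 library and 32.7% in the control, both being body-axis factors. Other homeobox genes held 58 members of 71 listed, 37 higher and 21 lower, with a median difference of 0.417 points. MSX2, a factor of craniofacial development, had 71.0% in the Mdivi-1 library and 63.4% in the control, and PAX2, a factor of kidney and eye development, 32.6% in the Mdivi-1 library and 25.6% in the control. The MSX2 difference of 7.56 points was 11.8 points among CpGs with 20 or more reads.

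Imprinted and germline genes had high shores. Imprinted genes, 32 members of 39 listed, had medians of 59.8% in the Mdivi-1 library and 54.8% in the control, 22 being higher and 10 lower, with a median difference of 0.608 points. MCTS2P, a retrogene expressed from the paternal allele, had 59.9% in the Mdivi-1 library and 51.9% in the control, with 9 of 9 CpGs higher, and HYMAI, a noncoding RNA of the PLAGL1 locus, had 74.3% in the Mdivi-1 library and 81.7% in the control. The HYMAI difference of -7.38 points was -0.0982 points among CpGs with 20 or more reads. Germline and meiosis genes, 32 of 46, had medians of 63.1% in the Mdivi-1 library and 62.4% in the control, 19 higher and 13 lower, with a median difference of 0.693 points and a mean of -0.0867 points. The cohesin gene SMC1B had 28.9% in the Mdivi-1 library and 35.6% in the control, and the testis tubulin gene TUBA3D 91.3% in the Mdivi-1 library and 96.4% in the control. TUBA3D has a near-identical copy, so reads may be split between the copies.

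Clustered protocadherins, cell-surface proteins that mark single neurons, had the highest shores of all 19 lists. Their 31 members, of 53 listed, had medians of 77.6% in the Mdivi-1 library and 77.4% in the control, 18 higher and 13 lower, with a median difference of 0.719 points and a mean of -0.109 points. PCDHGB1 had 35.9% in the Mdivi-1 library and 29.4% in the control, with 9 of 11 CpGs higher, whereas PCDHGA1 had 54.5% in the Mdivi-1 library and 61.0% in the control, with 4 of 6 lower and a difference of -6.49 points that was -3.53 points with pooled reads. These genes are repeats of one another, and reads from near-identical stretches may be split between them.

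Cytosolic ribosomal protein genes, 59 members of 74, had medians of 29.3% in the Mdivi-1 library and 26.5% in the control, 39 higher and 20 lower, with a median difference of 0.765 points. The median over all members was 0.268 points. The writers and erasers of DNA methylation, 13 of 17, were 4 higher and 9 lower, with a median of -0.363 points. DNMT3A, a de novo methyltransferase, had 39.8% in the Mdivi-1 library and 36.5% in the control, with 26 of 35 CpGs higher and 4 lower. The difference was 3.30 points, with a counting error of 0.901 points treating CpGs as independent and 7.23 points with shared reads. The DNMT3A CpGs run from 25475708 to 25565657 on chromosome 2, too far apart for 1 read to cover. The second error is thus wider than such reads allow, and the level merges separate stretches. TET2, a dioxygenase that starts demethylation, had 44.5% in the Mdivi-1 library and 43.0% in the control, a difference of 1.5 points, or 3.14 points among CpGs with 20 or more reads and 7.45 points with pooled reads.

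Of 43 Wnt pathway genes 34 were members, 17 higher and 17 lower, with a median of 0.0382 points and a mean of -0.315 points. The ligand gene WNT9A had 12.7% in the Mdivi-1 library and 8.21% in the control, with 11 of 16 CpGs higher, and the coreceptor gene LRP6 had 43.2% in the Mdivi-1 library and 46.4% in the control, with 7 of 9 lower. The LRP6 difference of -3.22 points was -10.1 points with pooled reads. Genes of other cell types were listed too. Of 21 blood cell genes 5 were members, 1 higher and 4 lower, with a median of -0.758 points, or 1.06 points among CpGs with 20 or more reads. The monocyte receptor gene CD14 was at 76.5% in the Mdivi-1 library and 73.2% in the control and the T cell kinase gene LCK at 28.2% in the Mdivi-1 library and 30.5% in the control. Of 20 epithelial and fibroblast genes 14 were members, 11 higher and 3 lower, with a median of 0.728 points. KRT8, a keratin, had 29.0% in the Mdivi-1 library and 20.6% in the control, and CLDN4, a tight junction protein, 63.9% in the Mdivi-1 library and 60% in the control. The KRT8 difference of 8.41 points was 5.27 points with pooled reads, and the CLDN4 difference of 3.98 points was 6.35 points with pooled reads and 2.42 points among CpGs with 20 or more reads.

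At single CpGs, no promoter shore CpG was called. The call was a two-sided Fisher exact test on recovered reads with Benjamini-Hochberg adjustment over all 2523693 CpGs, an adjusted p under 0.05 and a difference of 20 points or more. Of all CpGs tested 16, or 6.34e-04%, met it, and 0 of the 225367 promoter shore CpGs. At an unadjusted Fisher exact p under 0.05 there were 4624 promoter shore CpGs, 2720 higher and 1904 lower in the Mdivi-1 library. They made up 2.05% of promoter shore CpGs, against 2.02% of all CpGs. Differences of 20 points or more were seen at 4779 promoter shore CpGs, or 2.12%, 2635 higher and 2144 lower. The share of all CpGs past 20 points is not given here. At any size of difference, 44.4% of promoter shore CpGs were higher in the Mdivi-1 library and 39.9% lower. Of all autosomal CpGs 44.3% were higher and 38.6% lower, so the tilt was not particular to promoter shores.

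The CpGs of lowest p in each direction are given although none was called, and were thus chosen after their values were seen. At position 228613208 on chromosome 1, upstream of the replacement histone gene H3-4, 66 of 89 reads were methylated in the Mdivi-1 library and 28 of 77 in the control (Fisher exact p = 1.03e-06, adjusted p = 0.0997). In LINC00337, a long noncoding RNA gene, 29 of 34 reads at position 6294657 were methylated in the Mdivi-1 library and 3 of 17 in the control (Fisher exact p = 4.04e-06, adjusted p = 0.300). The lowest p among losses was at position 87908806 in the shore of RAB38 and MIR3166, with 19 of 57 reads in the Mdivi-1 library and 30 of 39 in the control (Fisher exact p = 3.01e-05, adjusted p = 1).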

How the data were processed

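Bisulfite sequencing after methyl capture (SureSelectXT Methyl-Seq kit, per the labels' protocols) was made from 2 libraries, 1 per group. The submitters' processing notes name BSMAP and hg19, with no version. The authors' table, as deposited, holds a methylated fraction and a coverage for each position and library, with coverage taken here as estimated counts of reads because a few are not whole, with promoter and CpG island annotation. The control fractions were whole reads at the deposited coverage for 33.3% of positions (tolerance 1e-06) and for all positions of whole-number coverage once coverage was multiplied by 1.23, the ratio of median coverages (37.0 and 30.0). This rescaling is read from the values, not from a source. Methylated reads were recovered by undoing it, and 10795 positions (0.389%) without whole reads were left out.

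Only CpGs read 10 or more times in each library entered. A level is the mean percent methylation over CpGs, and counting errors came from binomial variances, for independent CpGs or for reads shared by all CpGs. Reads are not independent molecules where PCR copies remain, so intervals cover counting error alone. How promoters were delimited is not stated. Some 33517 pairs of positions are both cytosines of 1 CpG. Of the members, 508 share all their CpGs with another member, and genes of identical CpG sets were named together. Distances run from the nearest measured island CpG, and 3.15% of promoter shore CpGs lay farther than 2000 bases from one. Promoter sequences and gene types came from RefSeq tables of GRCh38.p14, used for names and letters alone, in which 14458 members matched.

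Named were the 8 widest gains and 8 widest losses past the rule of size, the called CpGs of smallest p, 5 members of the widest contrast with their island in each direction, up to 2 members per list, DNM1L, and 3 members on either side of the rule. A few members named by this rule are not reported here. The members, the 19 lists and the tests were chosen with earlier results of these data known. Alternatives were a minimum of 20 reads, pooled reads, the deposited fractions, thinning, removal of the deepest CpGs and other rules of size, and 1 position per CpG, added after seeing the data. Scripts were tested on simulated data. Python 3.11.15, NumPy, pandas, SciPy, Numba and Matplotlib were used.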

Additional observations from a re-analysis of the deposited data

How the results depend on the processing

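With a minimum of 20 reads, 32 in place of 51 members met the rule of size, 21 higher and 11 lower in the Mdivi-1 library. With 3 or more CpGs there were 102, 58 higher and 44 lower, with 10 or more CpGs 7, 2 higher and 5 lower, and with 20 points 3, 3 higher and 0 lower. The number lower was 10 with pooled reads and 10 after thinning. The mean difference over members was 0.416 points with pooled reads and 0.488 points with the deposited fractions, and above 0 under all alternatives run. Members under 20% came to 42.4% in the Mdivi-1 library and 42.9% in the control with 20 reads, and to 43.0% and 43.3% with pooled reads. Members over 80% came to 12.1% in the Mdivi-1 library and 11.5% in the control with pooled reads, to 10.7% and 10.3% with 5 or more CpGs, and to 11.4% in the control with 20 reads. The median gap to the island was 12.3 points in the Mdivi-1 library and 12.0 points in the control with pooled reads. The first distance step held 25.3% in the Mdivi-1 library and 25.1% in the control in steps of 500 bases. No promoter shore CpG was called under any of the 4 alternatives run. The 16 members named for gain or loss kept their sign under every alternative that measured them. This is no independent check, as they were chosen for the widest differences and the alternatives reuse the same reads. Only 7 of the 16 had 3 or more CpGs with 20 reads in both libraries. Of all 65 named members tested, 3 changed sign with pooled reads and 1 of 52 with 20 reads. Differences of 19 of the 65 moved over 1.5 times with pooled reads and those of 14 of 52 with 20 reads. The cause was not tested. No paired analysis was possible because each group has 1 library.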

Other observations

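Promoter shores of the X chromosome are outside the rule, which takes autosomes. Over 514 X-linked genes with 3 or more promoter shore CpGs, the median level was 31.4% in the Mdivi-1 library and 30.6% in the control, and 67.5% of genes in the Mdivi-1 library and 67.5% in the control lay at 20 to 80%, against 47.2% and 47.2% of autosomal members. Of 468 such genes with 5 or more CpGs, 2 were higher by the rule of size and 0 lower. The rule was met by 0.253% of autosomal members with 5 or more CpGs in the higher direction and 0.127% in the lower. Over all autosomal promoters the shares were 0.128% and 0.115%. Nothing is read from so small a count.

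The length of the island went with the level of the nearest shore CpGs in both libraries. Within 200 bases, shore CpGs of promoters averaged 22.4% in the Mdivi-1 library and 22.2% in the control beside islands under 300 bases. They averaged 16.5% in the Mdivi-1 library and 16.2% in the control beside islands from 600 to under 1000 bases, and 29.1% and 28.8% beside islands of 2000 bases or more.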
